A study of Rattus norvegicus with 12 samples.

Results

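The genes of glycolysis, glycogen breakdown and pyruvate dehydrogenase were followed in rat left ventricles that expressed a vascular growth factor from a viral vector. A list of 34 genes was matched to the gene symbols of the array annotation, which left 30 genes with a named probe, of 13336 named genes in all. Where a gene had several probes, the probe with the highest mean signal over the 12 arrays was used. No probe carried the symbol of Hk1, Pgam1, Gys1 or Pdha1, so these 4 genes were not analysed here. The probes of Slc2a1, the basal glucose carrier GLUT1, and of Pfkfb3, the inducible bifunctional regulator of phosphofructokinase, were not well above background on any array and were not tested. The other 28 genes were tested, 27 of them above background on all 12 arrays.

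Illumina RatRef BeadChip arrays, 1 for each heart, were used to profile left ventricular RNA of 12 rats of Wistar background. In 6 rats an adeno-associated virus (AAV) vector given through the tail vein carried human VEGF-B (AAV-VEGF-B), a ligand of VEGFR-1, and in the 6 controls the same type of vector carried human serum albumin (AAV-HSA), a secreted protein. Either group consisted of 3 females with 2 months of transgene expression and 3 males with 4 months, and only the males were injected a second time. Sex, duration and the second injection therefore cannot be told apart, and all 12 rats had received a virus. The promoter of the vectors, the VEGF-B isoform on these arrays and the ages of the rats were not stated. Whether the rat Vegfb probe also detects the human transgene was not tested. The change of that probe was -0.24 on the log2 scale (SE 0.10, limma, adjusted p = 0.22).

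Glycolysis splits glucose into pyruvate in the cytosol, and hexokinase, phosphofructokinase and pyruvate kinase are its irreversible steps. Pyruvate is either reduced to lactate by lactate dehydrogenase or enters the mitochondrion, where the pyruvate dehydrogenase complex, switched off by its kinases, makes acetyl-CoA. The adult heart burns mostly fatty acids and keeps glucose and glycogen as a reserve, and most steps have a muscle isoform beside isoforms that prevail in liver, brain or other tissues. The study was concerned with how VEGF-B bears on the vessels and the metabolism of the heart, and the comparison here asked whether transcripts of these steps differed between the vectors.

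Levels below are normalized log2 signals, on which a difference of 1 is a doubling, and levels of different probes cannot be compared. A change is the AAV-VEGF-B mean minus the AAV-HSA mean from the limma fit, and a gene is said to have risen or fallen where its p-value, adjusted by Benjamini-Hochberg over all 10281 tested probes, was under 0.05. The labels give the hearts as separate samples. All 12 of the cardiomyocyte markers with a named probe, such as Myh6, Tnni3 and Tnnt2, were above background on all 12 arrays, and 0 of them changed. The array medians ran from 151.8 to 179.6 signal units, and pairs of arrays correlated at 0.988 to 0.995 across probes.

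Of the 28 tested genes, Pgm2 rose and 0 fell with AAV-VEGF-B. That is 3.57% of the genes higher and 0% lower, beside 4.17% of all tested probes that rose and 1.03% that fell, so the share that changed was near the background. The other 27 genes had changes between -0.24 and 0.09, with adjusted p-values (limma) of 0.18 and above. For 25 of these 27 the 95% interval of the change lay inside -0.50 to 0.50 on the log2 scale, the exceptions being Pfkfb1 and Phkg1. At an unadjusted p under 0.05 (limma), 1 gene was higher and Pgm1 and Pdhb were lower, which is 3.57% and 7.14% of the 28 genes against 10.6% and 9.38% of all probes. The number lower at this threshold moved with the processing, from 0 with median scaling to 5 without background correction. The groups were fully separated for Pgm2 alone, with AAV-VEGF-B the higher, and 0 genes were separated the other way, where 2.96% and 0.982% of all probes were separated.

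**Figure D1:**
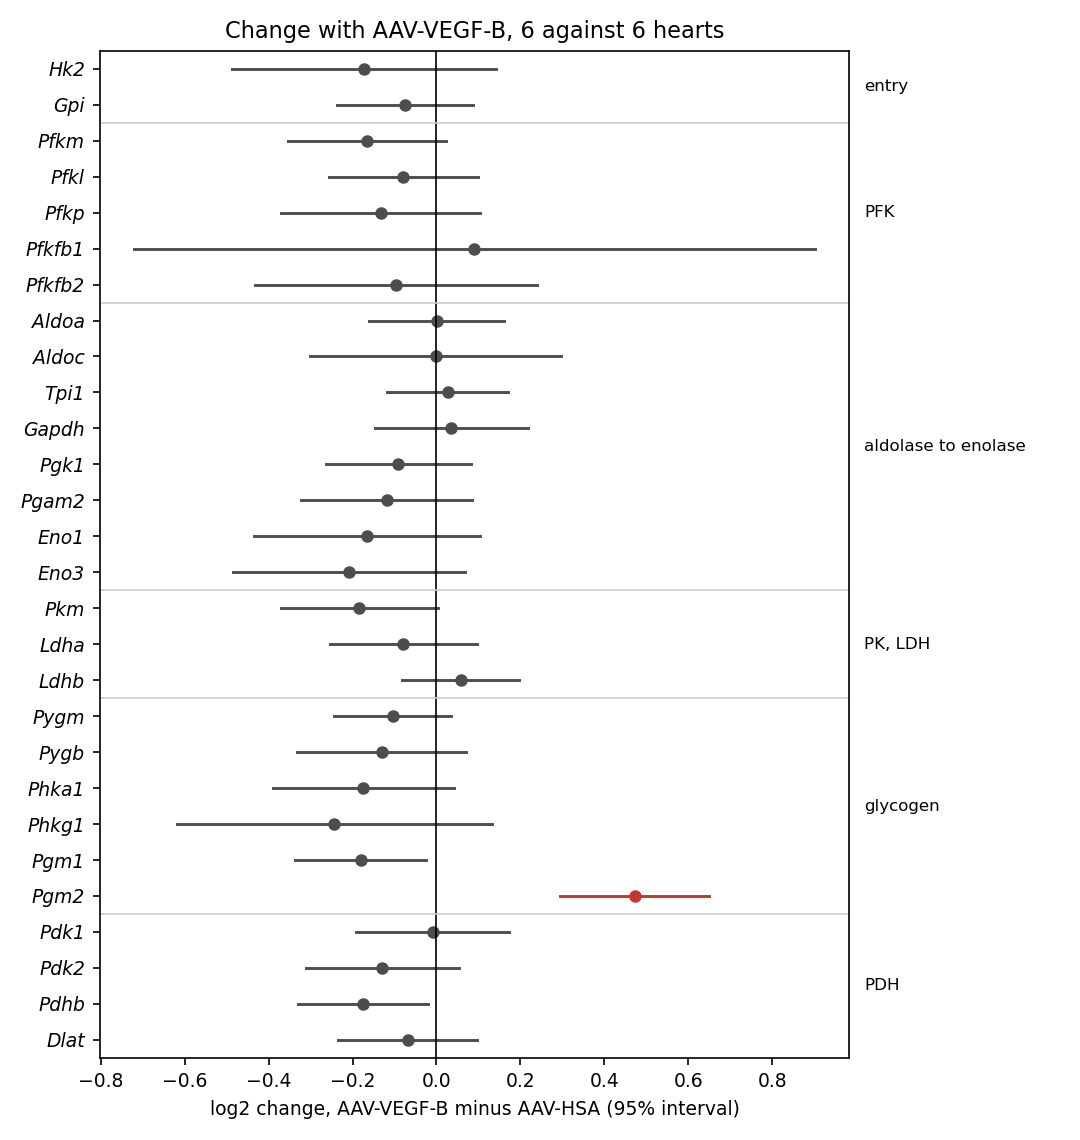
The log2 change with AAV-VEGF-B (x axis, 6 against 6 hearts) of the 28 tested genes in pathway order, where points are limma estimates, bars 95% intervals and red marks the gene that passed the test. Pgm2 sits at 0.47 while the other 27 genes lie between -0.24 and 0.09.

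Small negative values prevailed. The change was below 0 for 22 of the 28 genes (78.6%), against 56.2% of all probes, and above 0 for 6, with a median of -0.10, beside a median of -0.02 over all probes. With the arrays scaled to a common median in place of quantile normalization, 18 genes were below 0 and 10 above, the median was -0.02, and the median of all probes moved to 0.08. The median of the 28 genes minus that of all probes was thus -0.08 with quantile normalization and -0.09 with median scaling. The typical standard error of a gene's change was 0.09, so single values of this size are within their error. Within each heart, the number of the 28 genes above their own median over the 12 hearts was 12 to 21 in the AAV-HSA hearts and 10 to 13 in the AAV-VEGF-B hearts, which overlap. In whole tissue, fewer cells of a type and less RNA per cell cannot be told apart.

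**Figure D2:**
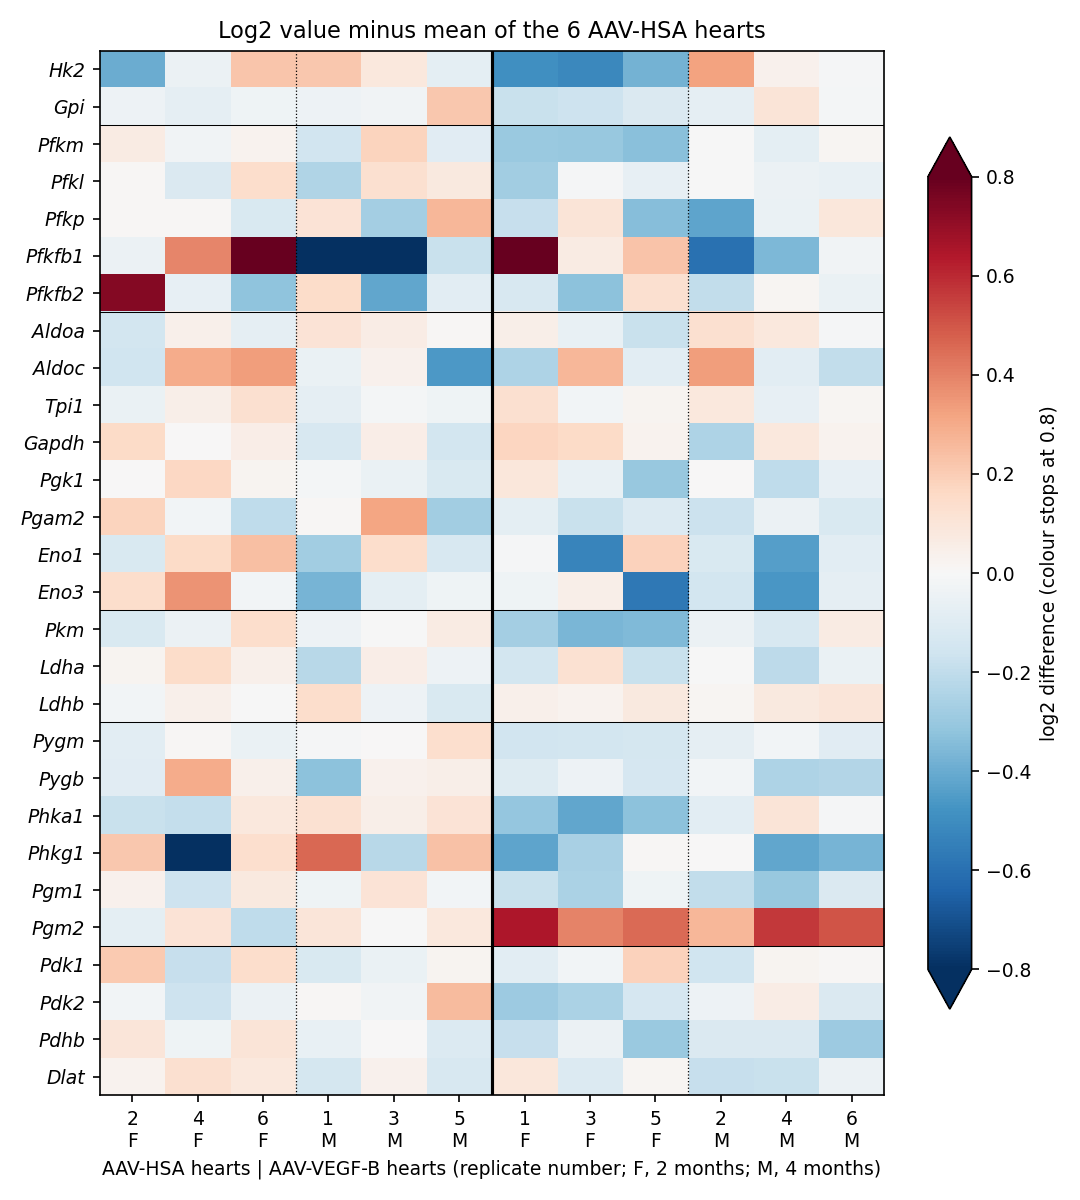
Log2 level of each tested gene (rows, pathway order) in each heart (columns, labelled by replicate number and sex) minus the mean of the 6 AAV-HSA hearts, with the colour scale stopping at 0.8. Pgm2 is above the control mean in all 6 AAV-VEGF-B hearts, and Pfkfb1 shows the widest scatter in both groups.

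The first steps after glucose entry did not pass the test. Hk2, the insulin-responsive muscle hexokinase that traps glucose as glucose 6-phosphate, measured 8.22, 8.57 and 8.84 in the AAV-HSA females and 8.84, 8.70 and 8.54 in the AAV-HSA males. The AAV-VEGF-B females measured 8.13, 8.10 and 8.24 and the males 8.94, 8.65 and 8.61. All 3 AAV-VEGF-B females lay below every male, while in the males the vectors overlapped. Over all hearts the Hk2 change was -0.17 (SE 0.15, 95% interval -0.49 to 0.14, limma, adjusted p = 0.55). Gpi, the isomerase that makes fructose 6-phosphate, differed by -0.07 (SE 0.08), and 4 of its 6 AAV-VEGF-B hearts lay below all AAV-HSA hearts.

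Phosphofructokinase commits the sugar to glycolysis and is built of muscle (Pfkm), liver (Pfkl) and platelet (Pfkp) subunits. Pfkm ran from 12.36 to 12.70, median 12.52, in the AAV-HSA hearts and from 12.18 to 12.54, median 12.33, in the AAV-VEGF-B hearts. The 3 AAV-VEGF-B females, at 12.22, 12.22 and 12.18, were below every other heart, and the 3 males, at 12.51, 12.44 and 12.54, lay within the control range. The change of Pfkm was -0.17 (SE 0.09, 95% interval -0.35 to 0.02, limma, adjusted p = 0.31). The other subunits had values of the same sign, -0.08 (SE 0.08) for Pfkl and -0.13 (SE 0.11) for Pfkp. The sign of these 2 small values turned with median scaling, to 0.07 and 0.02.

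The bifunctional enzymes encoded by Pfkfb1 and Pfkfb2 make and remove fructose 2,6-bisphosphate, the activator of phosphofructokinase, and Pfkfb2 is the form known from heart. Pfkfb2 ranged from 5.91 to 7.06 in AAV-HSA and from 5.99 to 6.45 in AAV-VEGF-B hearts, a change of -0.10 (SE 0.16). Pfkfb1, known from liver and skeletal muscle, was the least precise of the 28 genes. Its probe was dim and above background on 5 of the 6 AAV-VEGF-B and 4 of the 6 AAV-HSA arrays, and the SD of its residuals was 0.59, against a median of 0.12 over the tested genes. The vector change of 0.09 had a 95% interval from -0.72 to 0.90 (limma, adjusted p = 0.92), so the values are compatible with changes of either sign inside these bounds.

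From aldolase to enolase the sugar phosphates are split, oxidised and used to make ATP. None of the 8 tested genes of these steps changed, and their changes ran from -0.21 to 0.04. Aldoa, the muscle aldolase, measured 14.00 to 14.26 in AAV-HSA and 13.96 to 14.27 in AAV-VEGF-B hearts, and its 2 probes gave changes of 0.00 (SE 0.08) and 0.04 (SE 0.07). The brain aldolase Aldoc, at 0.00 (SE 0.14), and the triose phosphate isomerase Tpi1, at 0.03 (SE 0.07), were likewise flat within their errors. Gapdh, the dehydrogenase often used as a reference gene, differed by 0.04 (SE 0.09, 95% interval -0.15 to 0.22). The sign of the Aldoa and Aldoc values turned with median scaling, to -0.01 and 0.09.

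The phosphoglycerate kinase Pgk1, which makes ATP from bisphosphoglycerate, differed by -0.09 (SE 0.08). Pgam2, the muscle phosphoglycerate mutase, differed by -0.12 (SE 0.10), and its AAV-VEGF-B hearts, at 11.53 to 11.66, all lay inside the AAV-HSA range of 11.43 to 12.02. The most negative value of these steps belonged to Eno3, the muscle enolase. Its 6 AAV-HSA hearts ran from 10.33 to 11.06 and its 6 AAV-VEGF-B hearts from 10.13 to 10.75, with medians of 10.67 and 10.59. The change of -0.21 (SE 0.13, 95% interval -0.48 to 0.07) missed the threshold (limma, adjusted p = 0.40), as did that of the ubiquitous enolase Eno1, at -0.17 (SE 0.13).

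At the end of the pathway, Pkm, the muscle-type pyruvate kinase, measured 11.52, 11.59 and 11.78 in AAV-HSA females and 11.60, 11.64 and 11.70 in AAV-HSA males. With AAV-VEGF-B it measured 11.37, 11.27 and 11.29 in females and 11.59, 11.51 and 11.70 in males. The 3 AAV-VEGF-B females were the lowest of all 12 hearts, and 2 of the 3 AAV-VEGF-B males were inside the control range. The Pkm change was -0.18 (SE 0.09, 95% interval -0.37 to 0.00, limma, adjusted p = 0.26). Ldha, the lactate dehydrogenase subunit of fast muscle, differed by -0.08 (SE 0.08), and Ldhb, the heart subunit, by 0.06 (SE 0.07). Ldhb was among the tightest genes, at 14.78 to 15.04 in AAV-HSA and 14.92 to 14.99 in AAV-VEGF-B hearts.

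The glycogen genes held the one change that passed. Phosphoglucomutase interconverts glucose 1-phosphate, released from glycogen, and glucose 6-phosphate. Pgm1 is the main muscle enzyme, and the product of Pgm2 is known from human biochemistry to act mainly on pentose phosphates, although the symbol places it in the same family. Pgm2 measured 7.66, 7.85 and 7.53 in AAV-HSA females and 7.83, 7.73 and 7.82 in AAV-HSA males. With AAV-VEGF-B it measured 8.39, 8.14 and 8.19 in females and 8.01, 8.30 and 8.24 in males. The lowest AAV-VEGF-B heart was thus above the highest control, in either sex. The change was 0.47 (SE 0.08, 95% interval 0.29 to 0.65, a fold of 1.39, limma, adjusted p = 0.0037), and it was called under all 20 alternative settings, with adjusted p-values (limma) from 0.0015 to 0.016. Its size moved with the processing, from 0.31 without background correction to 0.62 with median scaling.

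Pgm1 ran from 10.97 to 11.25, median 11.14, in the AAV-HSA hearts and from 10.84 to 11.10, median 10.95, in the AAV-VEGF-B hearts. Of the 6 AAV-VEGF-B hearts, 4 were below all controls. The change was -0.18 (SE 0.07, 95% interval -0.34 to -0.02, limma, unadjusted p = 0.027, adjusted p = 0.18), which did not pass. Within each heart, the log2 level of Pgm1 minus that of Pgm2 averaged 3.40 ± 0.20 (SD, n = 6) in the AAV-HSA and 2.75 ± 0.17 (SD, n = 6) in the AAV-VEGF-B hearts, with no overlap. The difference of -0.65 (SE 0.11) had a two-sided exact permutation p of 0.0022, the smallest that 6 against 6 hearts can give. After adjustment over 8 gene pairs the permutation p was 0.017, so the 2 probes changed unequally. The difference was -0.70 in females and -0.61 in males.

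**Figure D3:**
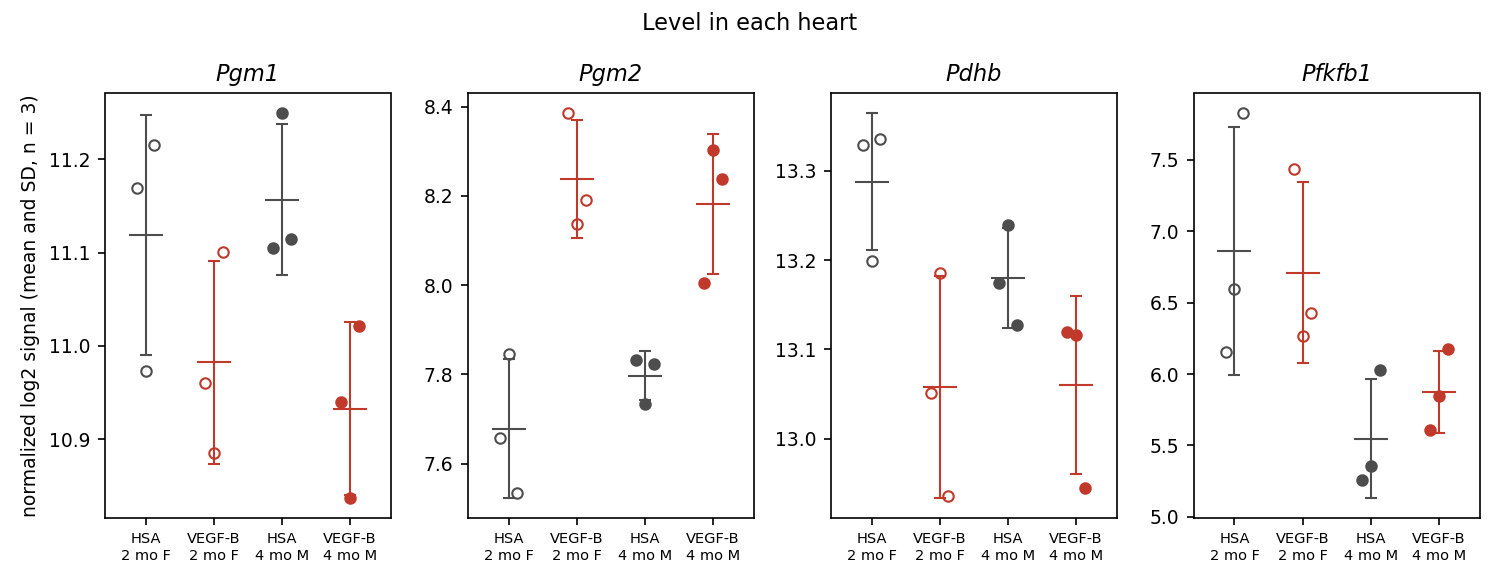
Normalized log2 signal (y axis, a separate scale for each gene) of Pgm1, Pgm2, Pdhb and Pfkfb1 in each heart by vector, sex and duration, with the mean and SD of 3 hearts as bars. Pgm2 is higher in all AAV-VEGF-B hearts, Pdhb lower in 5 of 6, and Pfkfb1 is spread widely in the females.

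The promoters of these 2 genes are shown because they were the pair that changed unequally. Many glycolytic genes are known targets of hypoxia-inducible factor, and ACGTG is a form of the core that it binds. This form alone was searched, on both strands, in the 250 bases before each gene's start in RefSeq (rat assembly GRCr8). It is called the core below, and other forms were not counted. The windows are printed 5′ to 3′ on the strand of the gene, with the core (or its reverse complement CACGT) in capitals.

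Pgm2, chr14:44553421-44553670, minus strand: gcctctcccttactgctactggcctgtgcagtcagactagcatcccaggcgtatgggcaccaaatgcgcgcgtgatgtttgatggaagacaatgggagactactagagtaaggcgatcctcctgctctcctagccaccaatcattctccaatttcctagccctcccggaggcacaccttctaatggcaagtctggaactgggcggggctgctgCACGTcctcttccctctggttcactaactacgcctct
Pgm1, chr5:119710484-119710733, plus strand: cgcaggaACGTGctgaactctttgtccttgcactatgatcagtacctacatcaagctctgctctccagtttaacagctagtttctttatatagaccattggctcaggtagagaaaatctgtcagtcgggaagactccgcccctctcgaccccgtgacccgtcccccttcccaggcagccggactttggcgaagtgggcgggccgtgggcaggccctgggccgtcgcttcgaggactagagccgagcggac

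Either window held 1 match, 37 bases before the start of Pgm2 and 243 bases before that of Pgm1, so the gene that rose and the gene that did not both have the core, at different places. Of the 28 tested genes 27 had a window in the table, and 13 of them (48.1%) held the core in at least 1 window, beside 18.1% of all 27457 rat genes counted the same way. Counted by window, the core stood in 13 of the 30 windows of these genes (43.3%) and in 16.6% of all 33469 windows. Both comparisons took in all rat genes, whether or not detected in these hearts, and base composition was not matched. The shares are therefore not shown to be particular to genes of these pathways. Pdhb had 4 matches, Ldha 3 and Pdk2 2, and these genes had changes of -0.18, -0.08 and -0.13. Matches on the 2 strands were counted separately, so a stretch CACGTG counts as 2 overlapping matches. These numbers need not be numbers of separate sites. A match describes the letters of the window and was not tested as a binding site.

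Of the genes that release glucose from glycogen, Pygm, the muscle glycogen phosphorylase, ran from 13.23 to 13.45 in AAV-HSA and from 13.16 to 13.30 in AAV-VEGF-B hearts. Its change of -0.10 (SE 0.07, limma, adjusted p = 0.40) came with 4 of 6 AAV-VEGF-B hearts below all controls. The brain phosphorylase Pygb differed by -0.13 (SE 0.09). Phosphorylase kinase, which switches phosphorylase on, was represented by its muscle subunits. Phka1, the muscle alpha subunit, differed by -0.17 (SE 0.10), and Phkg1, the muscle catalytic subunit, by -0.24 (SE 0.18, 95% interval -0.62 to 0.13). Phkg1 was dim, and 1 AAV-HSA female at 6.16 stood below the other 5 controls at 6.75 to 7.43.

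In the pyruvate dehydrogenase complex, Pdhb, the beta subunit of the decarboxylating enzyme, measured 13.33, 13.20 and 13.34 in AAV-HSA females and 13.17, 13.24 and 13.13 in AAV-HSA males. With AAV-VEGF-B it measured 13.05, 13.19 and 12.94 in females and 13.12, 13.12 and 12.94 in males. All AAV-VEGF-B hearts but 1 female lay below every control. The change was -0.18 (SE 0.07, 95% interval -0.33 to -0.02, limma, unadjusted p = 0.029, adjusted p = 0.19), which did not pass. Dlat, the acetyltransferase core of the complex, differed by -0.07 (SE 0.08). The kinases that inactivate the complex differed by -0.01 (SE 0.09) for Pdk1 and -0.13 (SE 0.09) for Pdk2. Median scaling turned the sign of Dlat and Pdk1, to 0.04 and 0.03.

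Pairs of genes of the same step or family were compared within each heart, with the form listed as muscle, heart or more oxidative first. Of 12 listed pairs, 8 had both genes tested, and the Pgm1 and Pgm2 pair was the one past the threshold of 0.05 after adjustment. These genes share a family, but the Pgm2 product is known to act mainly on pentose phosphates. Whether the difference bears on the glycogen step was not tested. Ldhb minus Ldha, the heart against the fast-muscle subunit, differed by 0.14 (SE 0.09) between the vectors, with an exact permutation p of 0.18, or 0.58 adjusted over the 8 pairs. Pfkm minus Pfkl differed by -0.09 (SE 0.08) and Pfkm minus Pfkp by -0.03 (SE 0.16). For aldolase the difference between muscle and brain forms was 0.00 (SE 0.16), for enolase between muscle and ubiquitous forms -0.04 (SE 0.20) and for phosphorylase between muscle and brain forms 0.03 (SE 0.10). Pdk2 minus Pdk1 differed by -0.12 (SE 0.10). The adjusted exact permutation p-values of these 7 pairs lay between 0.58 and 0.99, and the groups overlapped in each.

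**Figure D4:**
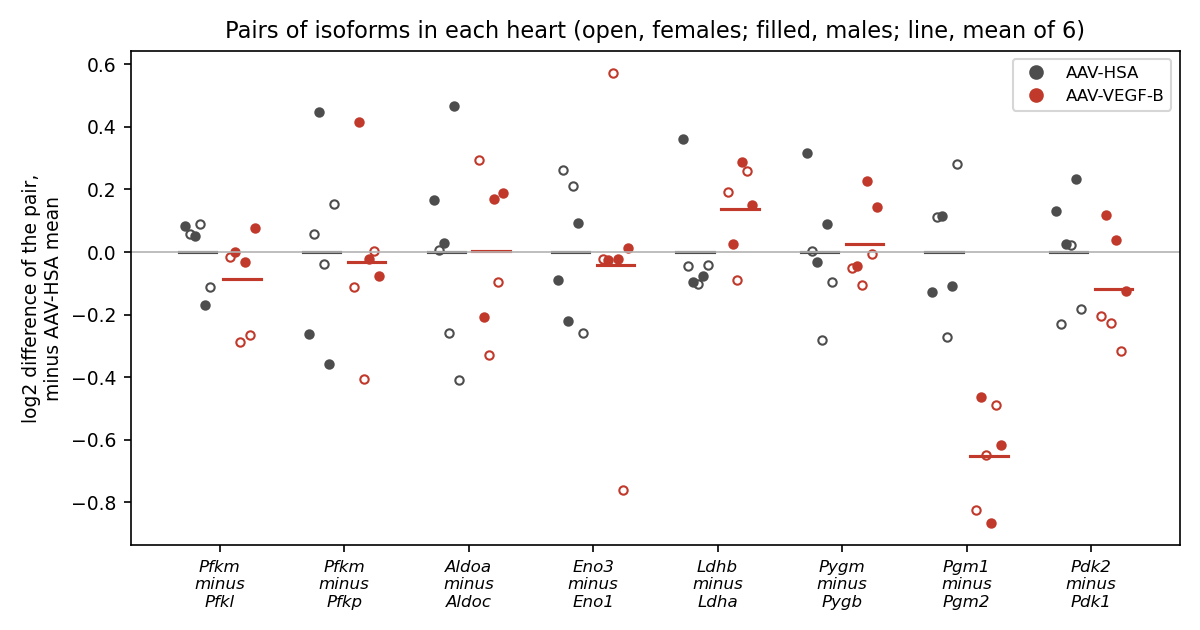
For 8 pairs of genes of the same step or family, the log2 level of the first gene minus that of the second in each heart, with the AAV-HSA mean of the pair subtracted (y axis), where points are hearts and lines means of 6. The Pgm1 and Pgm2 pair is separated by -0.65, and the groups overlap for the other 7 pairs.

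Within the females after 2 months, Pgm2 rose by 0.56 on the log2 scale (SE 0.12, limma, adjusted p = 0.024) and 0 genes fell, beside 2.53% of all probes that rose and 0.788% that fell in this contrast. The Pgm2 call in females was lost without any of 4 single hearts, with adjusted p-values (limma) from 0.054 to 0.11: AAV-VEGF-B replicates 1 and 5 and AAV-HSA replicates 2 and 6. The size of the Pgm2 change in females was 0.36 without background correction and 0.75 with median scaling. Hk2, Pfkm and Pkm had the next smallest p-values in females, with changes of -0.39 (SE 0.15), -0.33 (SE 0.10) and -0.32 (SE 0.10), with adjusted p-values (limma) of 0.19, 0.10 and 0.11. Phka1 and Pdhb, at -0.26 and -0.23, also had an unadjusted p under 0.05 (limma). At that threshold 1 of the 28 genes was higher and 5 were lower in females, beside 1030 and 892 of the 10281 probes. In the same contrast the atrial markers Nppa and Myl7 differed by 2.05 (SE 0.55, limma, unadjusted p = 0.0026, adjusted p = 0.063) and 1.23 (SE 0.44, limma, unadjusted p = 0.016, adjusted p = 0.16). The third tested atrial marker, Bmp10, differed by -0.02. The summed normalized signal of the 3 tested atrial markers was 7274 to 16427 in the AAV-VEGF-B females and 1613 to 3571 in the AAV-HSA females, and its part in these values was not tested. On the values without background correction, Pfkm and Pkm also fell in females, by 0.33 and 0.31 on the log2 scale (limma, adjusted p = 0.029 and 0.031). The share of all probes that fell in females under that setting was not counted. The median over the 28 genes was -0.14 in females, and 24 of them (85.7%) were below 0, against 54.6% of all probes.

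Within the males after 4 months, 0 of the 28 genes changed, where 0.749% of all probes rose and 0.0389% fell. Pgm2 differed by 0.39 (SE 0.12, 95% interval 0.13 to 0.64, limma, unadjusted p = 0.0062, adjusted p = 0.19), and its 3 AAV-VEGF-B males were above all 3 AAV-HSA males. Hk2, Pfkm and Pkm differed by 0.04, 0.00 and -0.05 in the males. The median over the 28 genes was -0.04, with 17 (60.7%) below 0, against 53.7% of all probes. The test of the difference itself, males minus females, called 0 of the 28 genes and 0 probes in all, which is 0%. The differences were -0.17 (95% interval -0.54 to 0.19) for Pgm2, 0.33 (0.02 to 0.65) for Pfkm, 0.43 (-0.03 to 0.89) for Hk2 and 0.28 (-0.03 to 0.59) for Pkm, with adjusted p-values (limma) of 0.94 and above, so these genes are not shown to respond differently in the 2 strata. At an unadjusted p under 0.05 (limma), Pfkm was the single gene of the 28 (3.57%) with a difference between the strata, beside 5.27% of all probes.

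**Figure D5:**
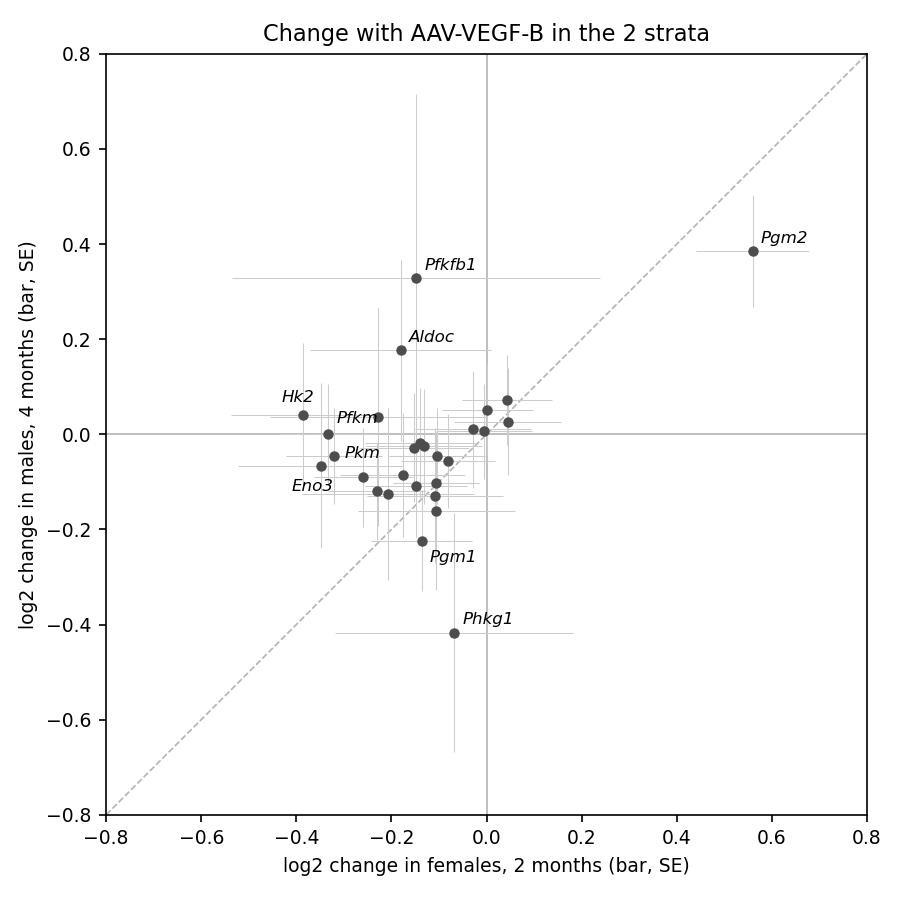
The log2 change with AAV-VEGF-B in females after 2 months (x axis) against that in males after 4 months (y axis) for the 28 tested genes, 3 against 3 hearts each, with standard errors as grey bars and the line of equal change dashed. Pgm2, at 0.56 and 0.39, is high in both, and Hk2, Pfkm and Pkm lie left of 0 near the horizontal line.

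Averaged over the vectors, 0 of the 28 genes differed between the males after 4 months and the females after 2 months after adjustment, where 0.447% of all probes were higher and 0.613% lower in the males. At an unadjusted p under 0.05 (limma), 4 genes were higher in the males, Hk2 at 0.36, Phka1 at 0.27, Pdk2 at 0.17 and Pkm at 0.16, and Pfkfb1 was lower. These are 14.3% and 3.57% of the 28 genes, beside 8.68% and 7.83% of all probes at the same threshold. Within the AAV-HSA hearts 0 of the 28 genes were higher in the males at that threshold, beside 551 of the 10281 probes. Within the AAV-VEGF-B hearts 4 were, beside 636 probes. Hk2, Phka1, Pdk2 and Pkm differed by 0.15, 0.18, 0.15 and 0.02 in the AAV-HSA hearts. In the AAV-VEGF-B hearts the same genes differed by 0.58, 0.35, 0.19 and 0.29. Pfkfb1 measured 6.15, 6.59 and 7.83 in AAV-HSA females and 5.26, 5.35 and 6.03 in AAV-HSA males. With AAV-VEGF-B it measured 7.44, 6.27 and 6.43 in females and 5.61, 5.85 and 6.17 in males. Males and females overlapped only narrowly, the lowest female lying just below the highest male. The difference was -1.07 (SE 0.27, 95% interval -1.66 to -0.48, limma, unadjusted p = 0.0017, adjusted p = 0.078), which did not pass. The probe was above background in 6 of 6 females but in only 3 of 6 males, so the size of the difference rests in part on values at the background. Over the alternatives it ran from -1.26 to -0.49, and the smallest values came from the signals without background correction and the deposited log2 values.

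Of the 3 tested atrial markers, 2 moved along the same axis. Nppa, the atrial natriuretic peptide, differed between males and females by -2.50 on the log2 scale (limma, adjusted p = 0.015) and Myl7, the atrial light chain, by -1.43 (limma, adjusted p = 0.049), both lower in the males. Bmp10 had a difference of the other sign, 0.23, and did not pass. The summed normalized signal of these 3 markers, of 5 listed, was 612 to 2313 in the males of both groups, below the AAV-VEGF-B females and overlapping the AAV-HSA females. Of the fast skeletal muscle markers 4 were tested, and 1 of them, Mybpc2, the fast myosin-binding protein C, was lower in the males, with a difference of -0.51 (SE 0.09, limma, adjusted p = 0.026). Their summed signal was low in all hearts, at 273 to 444, and Actn3, Pvalb, Myh2 and Myh4 were above background on 0 arrays. The part of atrial or skeletal muscle transcripts in the Pfkfb1 values was not tested.

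Markers of vessel cells moved with the vector in the same hearts as Pgm2. Of 10 tested endothelial markers 7 rose, among them Emcn, Adgrl4, Tie1 and Icam2, by 0.71, 0.73, 0.72 and 0.57 on the log2 scale, where 4.17% of all probes rose. Changes were above 0 for 9 of the 10 and below 0 for 1, at -0.11. The summed normalized signal of the 10 was 8190 to 10284 in the AAV-HSA and 11572 to 13826 in the AAV-VEGF-B hearts. Of 6 tested smooth muscle and pericyte markers 4 rose, Higd1b, Mcam, Cspg4 and Kcnj8, by 0.61, 1.00, 0.49 and 0.44, and of 5 red blood cell genes 1 rose, Ahsp, by 1.15. None of the tested fibroblast, leukocyte, atrial or adipocyte markers passed the test of the vector over all 12 hearts. The part of these cells in the Pgm2 change was not tested.

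Further genes of glucose handling were counted as a wider frame. Of 57 tested genes of carriers, other isoforms and regulators, glycogen, pyruvate dehydrogenase, side branches and non-glycolytic targets of hypoxia-inducible factor, 0 rose and 0 fell, where 4.17% and 1.03% of all probes did. At an unadjusted p under 0.05 (limma), 3 of them (5.26%) were higher and 9 (15.8%) lower, beside 10.6% and 9.38% of all probes, and their median change was -0.04, beside -0.02. The following values were chosen after they were seen. Pdk4, the pyruvate dehydrogenase kinase that is induced by fasting and fatty acids, differed by -0.65 (SE 0.21, limma, adjusted p = 0.086), and Pdp2, a phosphatase that activates the complex, by -0.41 (SE 0.13, limma, adjusted p = 0.092). Gbe1, the glycogen branching enzyme, differed by -0.23 (SE 0.07, limma, adjusted p = 0.094) and Slc2a4, the insulin-responsive carrier GLUT4, by -0.19 (SE 0.09, limma, adjusted p = 0.23). Among the 10 tested hypoxia targets outside glycolysis, 7 were above 0 and 3 below, and Vegfa differed by -0.33 (SE 0.10, limma, adjusted p = 0.061).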

How the data were processed

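The authors deposited probe signal intensities of 12 arrays, not normalized, each with its detection p-value, and a table of log2 values. The latter equalled quantile-normalized log2 signals to within 0.005. Their methods name GenomeStudio, and Chipster for empirical Bayes statistics. Signals were processed here by neqc of limma 3.58.1 (R 4.3.3), that is, normexp background correction by detection p-values, quantile normalization with an added offset of 16, and log2. Tests covered the 10281 of 22517 probes detected (p under 0.05) on 3 or more of the 12 arrays, by lmFit and eBayes, first by vector and then as 4 groups of vector by stratum. Standard errors and intervals are limma's, p-values two-sided. The hearts are separate samples in the labels, and their number, 6 per vector, limits the precision. The array annotation gave 13787 probes 1 gene symbol and 8730 none; 13747 identifiers were found in RefSeq GRCr8, and 0 symbols differed. The 34 genes, the marker lists and the tests were chosen with earlier results of these data known. All 34 genes were to be named, and up to 4 called genes with the smallest p in each other list. The steps were tested on simulated data. Alternatives were other background correction, scaling, filters, blocks, probe averaging, the deposited log2 values and each heart left out.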

Additional observations from a re-analysis of the deposited data

Results flagged for a closer look

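In 3 of the 56 groups of 6 hearts examined for the tested genes, 1 heart stood farther from its neighbours than Dixon's criterion allows, where chance flags about 1 in 20 groups, or 2.8 of 56. Gpi was highest in AAV-HSA replicate 5, at a log2 level of 13.47. Pfkl was lowest in AAV-VEGF-B replicate 1, at 8.26. Gapdh was lowest in AAV-VEGF-B replicate 2, at 13.46. None of these 3 genes changed with the vector, with or without the heart concerned.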

How the results depend on the processing

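The count of genes higher with AAV-VEGF-B was 1, and of genes lower 0, under all 20 alternatives run, and the Pgm1 minus Pgm2 difference kept its direction and its call under all 18 of its own. A block on the array's chip or position was not run, since neither is given here. In females the count of changed genes was 3 without background correction and 3 on the deposited log2 values (Pgm2, Pfkm and Pkm), and ran from 0 to 1 with single hearts left out. The share of all probes called in females was not counted under these settings, so the counts have no background beside them. Median scaling turned the sign of small uncalled changes: Pfkl 0.071, Pfkp 0.019, Aldoa -0.0053, Aldoc 0.094, Pdk1 0.028, Dlat 0.037 and Aldoa minus Aldoc -0.099. It also called 842 probes higher and 27 lower over the whole array, beside 429 and 106. The number of genes lower at an unadjusted p under 0.05 (limma) was 0 with median scaling and 5 without background correction. It was 4 with the stratum as a block and 4 on the deposited log2 values. The share of all probes at that threshold was not counted under these settings.

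Leaving out single hearts turned the sign of uncalled values with ranges of Pfkfb1 -0.14 to 0.42, Pfkfb2 -0.18 to 0.052, Aldoa -0.029 to 0.037, Aldoc -0.094 to 0.066, Pdk1 -0.048 to 0.032, Pfkm minus Pfkp -0.12 to 0.057, Aldoa minus Aldoc -0.078 to 0.096, Eno3 minus Eno1 -0.16 to 0.10 and Pygm minus Pygb -0.029 to 0.091.

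Same-numbered hearts differ in sex, and the numbers did not pair them: their deviations correlated at -0.19 to -0.05 over 6 pairs, and 0 of 6 AAV-VEGF-B hearts lay closest to its own number. With the replicate block the Pgm2 change kept its call (limma, adjusted p = 0.016), 1 gene was called, and 300 probes rose and 42 fell over the whole array. The stratum as a block gave 494 higher and 180 lower, and the deposited log2 values 496 and 179. Dim probes, such as those of Pfkfb1, Pfkfb2, Aldoc and Phkg1, limit what could be detected.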
